A study of Citrus sinensis with 72 samples.

Results

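The comparison described here is that of the albedo (AL) at stage 5 with the albedo at stage 4 in the 'Fengjie 72-1' navel orange, 3 libraries against 3. The members were the 15631 of the 30940 genes in the deposited table that had an FPKM (the fragments counted for a gene, scaled to its transcript length and to the size of the library) of at least 1 in at least 3 of these 6 libraries, out of 72 libraries in all. The AL is the white spongy inner peel, separated by hand from the epicarp (EP, the coloured outer peel), the segment membrane (SM) and the juice sac (JS) of the same fruits. The sample labels give 150 days after flowering (DAF) for AL4 and 180 DAF for AL5, while the paper places stage 4 a few days later. AL4 was harvested at the end of fruit expansion and AL5 in the colouring period. All trees were of 1 cultivar on the same rootstock and in the same orchard, and each replicate pooled fruits of 3 trees, so the spread between replicates is that between groups of trees.

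The albedo is a tissue of loosely joined cells with large air spaces and walls rich in pectin, and it is known for its flavonoids and limonoids. During expansion it is the peel layer that is stretched as the pulp grows, and during ripening it softens while the outer peel loses chlorophyll and gains carotenoids. A whole tissue was sequenced, so that fewer cells of a type and less RNA per cell cannot be told apart in any of the values below. The table names genes by ID. Of its 30940 IDs, 0 were found among the locus tags, accessions and symbols of a RefSeq gene table for the species, so no pathway was described and no role is given to a gene.

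The 6 libraries rested on 18902280 to 22153202 fragments in AL4 and 16983646 to 20390775 in AL5, and 15018 to 15494 genes per library had an FPKM of at least 1. The AL4 libraries were less alike than the AL5 libraries. Pearson's r of log2(FPKM + 1) across the genes tested was 0.934 to 0.961 between AL4 libraries, 0.968 to 0.986 between AL5 libraries and 0.863 to 0.902 between an AL4 and an AL5 library. The median SD of a gene was 0.33 in AL4 and 0.17 in AL5 on the log2 scale (n = 3 each). The composition of the libraries varied too, as the highest gene held 4.22%, 13.6% and 7.76% of the FPKM sum in replicates 1 to 3 of AL4 and 9.19% to 11.8% in AL5. In the study's own table of libraries, RNA integrity was lower in all AL4 libraries than in all AL5 libraries, and replicate 1 of AL4 had the lowest share of uniquely mapped reads of the series. The part of RNA quality and of the highest gene in the results was not tested.

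With all libraries of both stages, about as many genes rose as fell in the AL between stages 4 and 5. Of the 15631 genes, 3442 (22.0%) were differentially expressed by limma on log2(FPKM + 1), at a Benjamini-Hochberg adjusted p under 0.05. In AL5, 1817 genes (11.6%) were higher and 1625 (10.4%) were lower. The median log2 fold change was 1.17 in the higher genes, -1.16 in the lower genes and 0.05 over all genes tested. At least 2-fold changes were found in 1190 higher (7.61%) and 1056 lower (6.76%) genes, at least 4-fold changes in 270 and 218, and at least 16-fold changes in 20 and 14. The values of AL4 and AL5 did not overlap in 1809 of the higher (99.6%) and 1620 of the lower genes (99.7%), against 42.6% of all genes tested. The same values made the calls, so the lack of overlap was largely set by the choice. In 10 of the higher genes no AL4 library had a fragment, and these were at least 34.9-fold to 258-fold higher in AL5, against a floor of 3 fragments over the AL4 libraries together. Only 1 lower gene had no fragment in AL5, at least 4.03-fold lower.

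The counts depended on single libraries. Without replicate 1 of AL4, 1171 genes were higher and 882 lower (2053 in all). Without replicate 1, 2 or 3 of AL5, 687, 814 and 1120 genes were higher and 681, 890 and 1182 lower (1368, 1704 and 2302 in all), and without replicate 1 of AL5 the number with at least 2-fold changes was 1327 in place of 2246. Of the genes called in each of these fits, 1932, 1366, 1669 and 2175 were among the 3442, all with the same direction. These fits reuse the remaining libraries, so the shared direction was largely set in advance. The balance of higher and lower genes moved as well, to 2216 and 1428 without replicate 3 of AL4. It was 1906 and 1853 without replicate 2 of AL4. At the edge of the filter, 686 genes reached an FPKM of 1 in exactly 3 of the 6 libraries and were tested. Another 536 reached it in exactly 2 and were not.

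**Figure D1:**
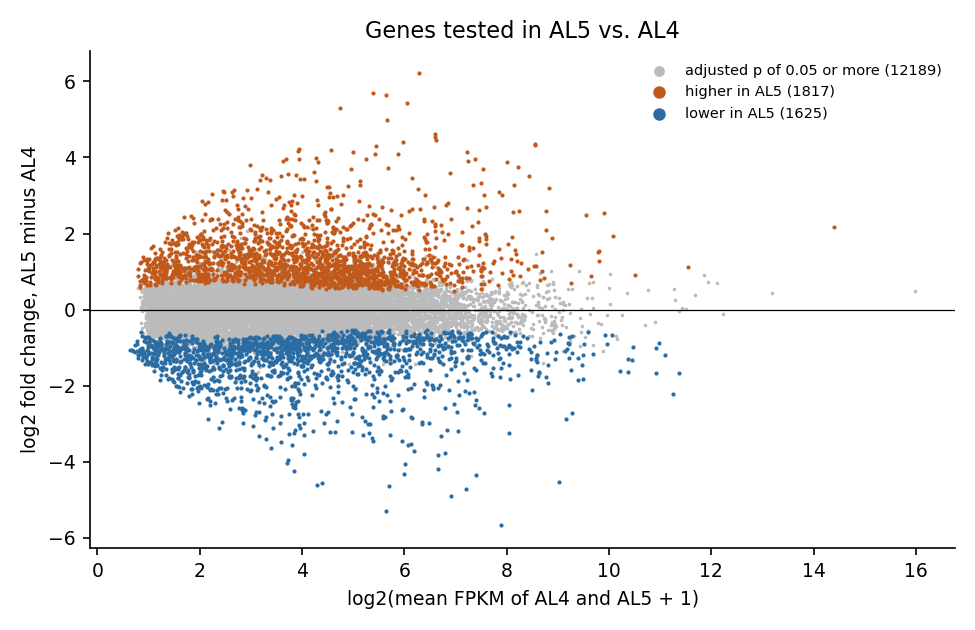
Each point is a gene tested in AL5 vs. AL4, with log2 of its mean FPKM (plus 1) on the x axis and its log2 fold change from limma on the y axis. The 1817 genes higher in AL5 and the 1625 lower in AL5 lay at every level of expression, and the fold changes ran from -5.67 to 6.21.

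Called genes were found at all levels of expression. Among the fifth of genes with the lowest mean FPKM over the 6 libraries, 9.53% were higher and 10.2% lower in AL5. Among the fifth with the highest mean, 13.9% were higher and 14.6% lower, and in the next highest class of the same size 14.6% were higher and 8.16% lower. Transcript lengths, which the steps of the FPKM values gave for all 15631 genes, had a median of 1747 bases in the higher genes, 1648 in the lower genes and 1738 over all genes tested. In the fifth with the longest transcripts, 10.1% of genes were higher and 7.42% lower, against 9.88% and 10.6% in the fifth with the shortest. The median log2 fold change was 0.02 in the genes with the shortest transcripts and 0.09 in those with the longest. Genes whose ID starts with neither Cs nor orange had a different split, with 49 of 540 (9.07%) higher and 87 (16.1%) lower. What sets these IDs apart is not given in the sources used here.

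The called genes held a large part of the FPKM sum. The higher genes held 8.23%, 6.37% and 7.31% of the FPKM sum in replicates 1 to 3 of AL4 and 21.0%, 21.0% and 19.6% in those of AL5. The lower genes held 23.6%, 21.1% and 20.04% in AL4 and 7.85%, 8.12% and 9.39% in AL5. As these genes were chosen by the same values, the shares describe the size of the exchange and do not test it.

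A single gene took the largest part of the gain, and it was picked out after its values were seen. Cs5g27060 had an FPKM of 11857, 5933 and 6654 in replicates 1 to 3 of AL4 and 34007, 35223 and 36639 in those of AL5. The AL5 libraries lay close together and each was above 2 times the highest AL4 library. Its log2 fold change was 2.18 (standard error, SE, 0.29, limma adjusted p = 0.00154), and its share of the FPKM sum went from between 0.818% and 1.96% in AL4 to between 4.98% and 5.33% in AL5. In AL1 to AL3 its mean lay between 2992 and 4551, and in AL6 it was 38192 ± 1258 (SD, n = 3). It rose in the other tissues as well, with log2 fold changes of 1.36 (EP), 1.44 (SM) and 1.38 (JS) (limma adjusted p = 0.00184, 0.00104 and 0.00299), and its change in the AL was above their mean by 0.79 (SE 0.22, limma adjusted p = 0.0254). Without this gene, the higher genes held 5.55% to 6.31% of the FPKM sum in AL4 and 14.2% to 16.01% in AL5.

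On the log2(FPKM + 1) scale, which understates folds from a low level, the largest rise was that of Cs6g12880. At least 1 of the genes without a fragment in AL4 had a larger fold. Its FPKM was 0.351, 1.67 and 1.34 in replicates 1 to 3 of AL4 and 182, 109 and 170 in those of AL5. Those AL4 values rested on 15, 61 and 49 fragments. Every AL5 library was far above every AL4 library. The log2 fold change was 6.21 (SE 0.31, limma adjusted p = 7.87e-05). The gene was at a mean of 0.0917 or less in AL1 to AL3 and went on to 599 ± 91.3 (SD, n = 3) in AL6. In the JS it was ahead of the AL, at 45.3 ± 7.07 (SD, n = 3) in JS4 and 237 ± 50.1 in JS5, whereas the EP went from 2.93 ± 3.11 to 134 ± 77.5 and the SM from 7.55 ± 2.90 to 149 ± 25.4. The change in the AL exceeded that in the JS by 3.86 on the log2 scale (adjusted p = 0.000878 from limma). The difference was 0.91 from the EP (adjusted p = 0.455 from limma) and 2.04 from the SM (adjusted p = 0.063 from limma). Genes ranked by their change in the AL were chosen by a part of these differences, here and below, so the differences are a description.

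Cs7g32150 had the next largest rise on this scale. Its FPKM was 0.717, 0.315 and 0.522 in replicates 1 to 3 of AL4 and 109, 81.7 and 51.2 in those of AL5, with a log2 fold change of 5.69 (SE 0.29, limma adjusted p = 7.87e-05). With a pseudocount of 0.1 the change was 7.02 and with limma-voom 7.21, and that of Cs6g12880 was 7.16 and 7.36. Every AL5 library was far above every AL4 library, though replicate 3 of AL5 was at less than the level of the others. The AL reached a higher level than the other tissues, which were at 14.1 ± 0.956 (SD, n = 3) in EP5, 36.3 ± 14.3 in SM5 and 24.7 ± 4.95 in JS5. The change in the AL exceeded that in the EP by 2.88, that in the SM by 1.83 and that in the JS by 3.89 on the log2 scale (adjusted p = 4.14e-05, 0.00913 and 5.73e-06 from limma). The gene had been at 4.28 ± 2.69 (SD, n = 3) in AL1 and was at 148 ± 20.5 in AL6. The next 3 genes of the same ranking rose by 5.29 to 5.65 on the log2 scale, from means of 0.289 to 1.94 in AL4 to means of 51.4 to 129 in AL5.

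The largest fall on the log2(FPKM + 1) scale was that of Cs6g11570, a gene that was high and uneven in AL4. Its FPKM was 819, 423 and 145 in replicates 1 to 3 of AL4 and 3.26, 6.23 and 11.5 in those of AL5. It fell by 5.67 on the log2 scale (SE 0.60, limma adjusted p = 0.000612). The AL4 libraries were spread over a wide range, and the groups stayed far apart. AL4 was a second maximum, since the gene was at 499 ± 261 (SD, n = 3) in AL1, 33.7 ± 51.8 in AL3 and 0.800 ± 0.368 in AL6. In AL6 vs. AL3 it had an adjusted p of 0.155 from limma. It fell in all other tissues from stage 4 to stage 5, and fell further in the AL, by -3.55 against the EP, -2.49 against the SM and -2.32 against the JS on the log2 scale (adjusted p = 0.00149, 0.0362 and 0.0447 from limma).

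**Figure D2:**
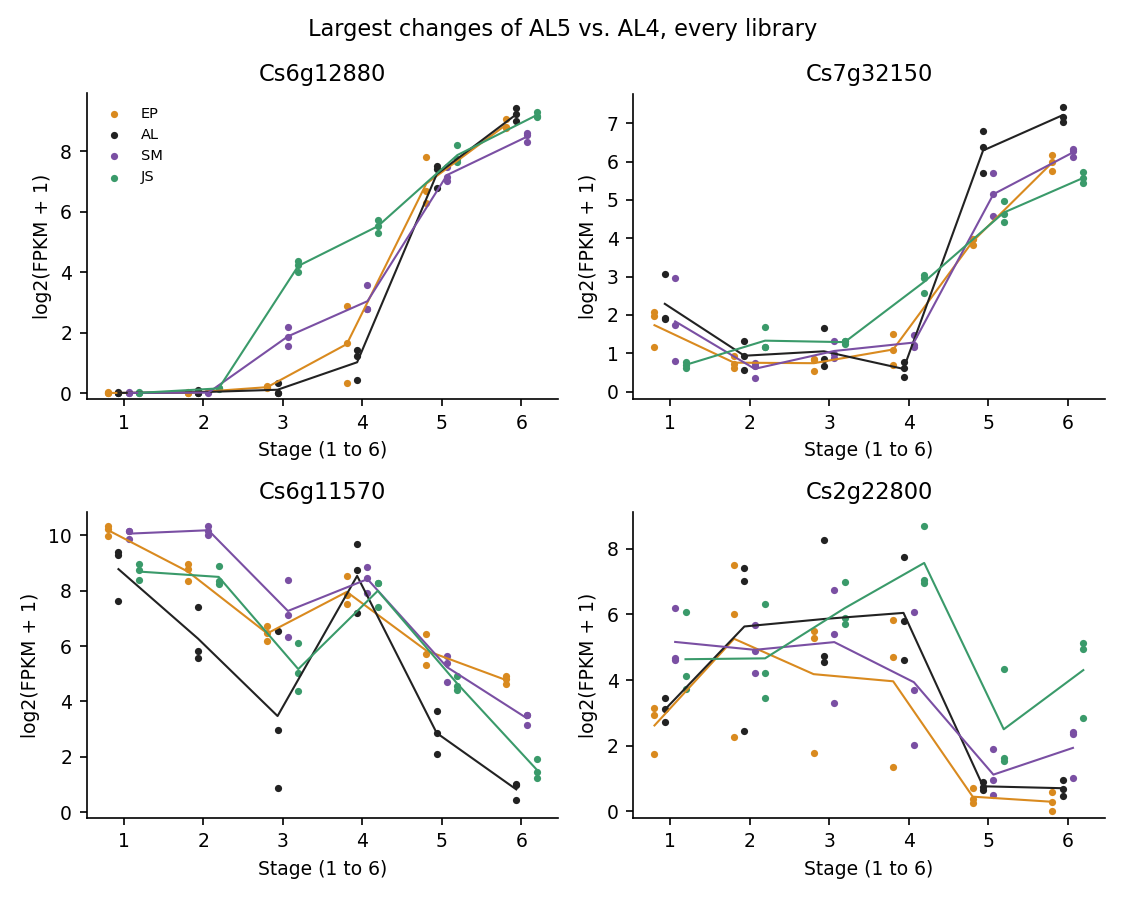
Log2(FPKM + 1) of the 2 genes that rose most and the 2 that fell most on this scale in AL5 vs. AL4, in each library (points) and as the mean of 3 (lines), by stage and tissue. Cs6g12880 and Cs7g32150 were below an FPKM of 2 in every AL4 library and above 50 in every AL5 library, and Cs6g11570 and Cs2g22800 were above 20 in every AL4 library and below 12 in every AL5 library.

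Cs2g22800 was the next largest fall on this scale and had neighbours in ID number that fell with it. Its FPKM was 54.2, 23.3 and 215 in replicates 1 to 3 of AL4 and 0.560, 0.867 and 0.673 in those of AL5, and it fell by 5.29 on the log2 scale (SE 0.65, limma adjusted p = 0.0012). Its fall exceeded that of Cs6g11570 with a pseudocount of 0.1 (-6.36 and -5.88) and with limma-voom (-6.49 and -5.92). The AL4 libraries were spread over a wide range and the AL5 libraries lay at 10 to 17 fragments each. The genes with the preceding ID and the 2 following IDs were called lower too, so that 4 genes in a row had log2 fold changes of -5.29 to -3.49. Another gene, 3 places before Cs2g22800, fell by 4.57. In each of these 5 genes replicate 3 of AL4 was the highest of the 6 libraries and replicate 2 the lowest of AL4. On the far side, the next gene changed by -0.29 (adjusted p = 0.289 from limma). Reads shared between similar copies could not be checked from FPKM values, so the 5 genes may not be separate measurements. Cs2g22800 was also lower in EP5 than in EP4 and in JS5 than in JS4 (adjusted p = 0.0309 and 0.00892 from limma), and its change in the AL was not separable from the mean of the other tissues (difference -1.48, SE 1.19, limma adjusted p = 0.437). The other 3 genes of the ranking, of which 1 was the gene that lies 2 places after Cs2g22800, had log2 fold changes of -4.91 to -4.65 and went to means of 2.41 to 9.01 in AL5.

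**Figure D3:**
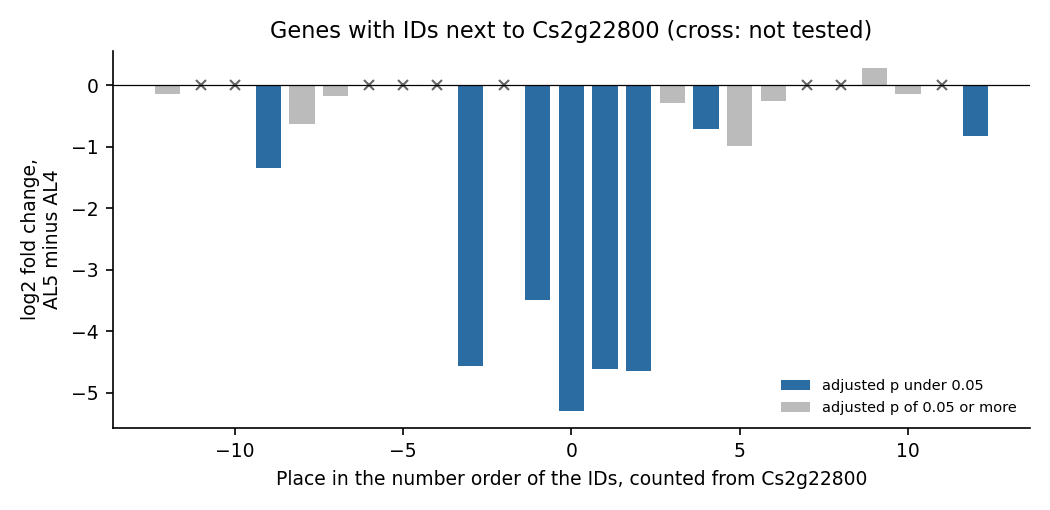
Log2 fold change of AL5 vs. AL4 for the genes whose IDs lie within 12 places of Cs2g22800 in number order, with coloured bars for an adjusted p under 0.05, grey bars for the others and crosses for genes that were not tested. The 4 bars from place -1 to place 2 and the bar at place -3 reach from -3.49 to -5.29, and the lowest of the other bars is at -1.35.

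Called genes of the same direction followed each other in ID number more often than genes of other kinds did. Among 8331 pairs of tested genes with successive IDs of the Cs form, a higher gene was followed by a higher gene in 176 of 1013 cases (17.4%) and by a lower gene in 71 (7.01%), whereas 11.3% of the genes that followed any other gene were higher. A lower gene was followed by a lower gene in 126 of 836 cases (15.1%), against 9.31% after any other gene, and by a higher gene in 85 (10.2%). These shares are a description, without a test, and the part of reads shared between similar genes in them was not tested. Runs were short, with 135 runs of 2 higher genes, 16 of 3 and 3 of 4, and 97, 10 and 3 runs of lower genes of the same lengths.

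The higher genes as a list were at a low level from AL2 to AL4 and at a high level in AL5 and AL6. Their median log2(FPKM + 1) was 3.42 ± 0.08 (SD, n = 3) in AL1, 3.06 ± 0.40 in AL2, 3.15 ± 0.45 in AL3, 3.18 ± 0.13 in AL4, 4.59 ± 0.12 in AL5 and 4.56 ± 0.04 in AL6. The median of all genes tested stayed between 3.46 and 3.69 over the same stages. The lower genes had medians of 4.07 to 4.34 in AL1 to AL4, then 2.97 ± 0.13 (SD, n = 3) in AL5 and 2.80 ± 0.01 in AL6. AL4 and AL5 chose both lists, and the other stages did not. Among the higher genes, 810 (44.6%) had their highest albedo mean at stage 6 and 690 (38.0%) at stage 5, while 276 (15.2%) were highest at stage 1, against 28.5%, 13.7% and 18.4% of all genes tested. Among the lower genes, 783 (48.2%) were lowest at stage 6 and 443 (27.3%) at stage 5, against 14.4% and 10.6% of all genes tested. Stages 4 and 5 entered the choice of the lists, so these counts are a description.

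**Figure D4:**
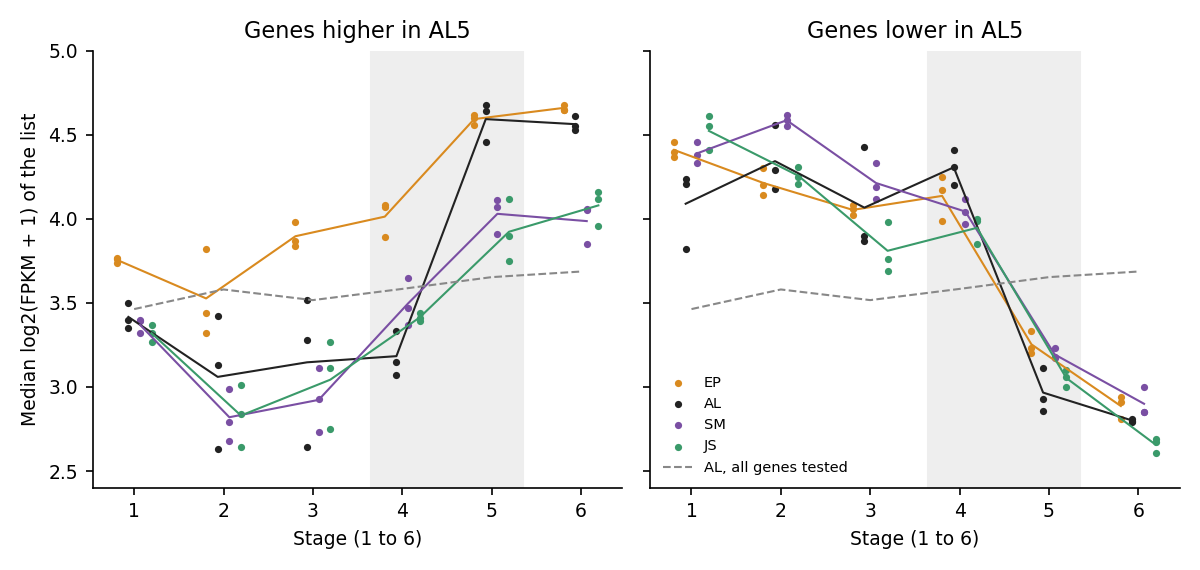
Median log2(FPKM + 1) of the genes higher in AL5 (left) and lower in AL5 (right) in each of the 72 libraries (points), with the mean of 3 libraries as lines by tissue. The shaded stages are those that chose the lists in the AL, and the dashed line is the median of all genes tested in the AL, between 3.46 and 3.69.

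The wider interval from stage 3 to stage 6 was used to look at the same genes in albedo libraries that had no part in choosing them. In AL6 vs. AL3, where 30.1% of all genes tested were called, 1078 of the 1782 higher genes that were tested (60.5%) were higher in AL6, against 17.8% of all genes tested, and 20 were lower. Of the 1499 lower genes that were tested, 773 (51.6%) were lower in AL6, against 12.3% of all genes, and 19 were higher. The median log2 fold change of AL6 vs. AL3 was 1.28 in the higher genes, -1.04 in the lower genes and 0.20 over all genes. After scaling by median ratios the median over all genes was 0.04, and the lower share of all calls in AL6 vs. AL3 was 49.7% in place of 40.8%. These counts leaned on single AL3 and AL6 libraries. The number of higher genes was 412, 372 or 424 without replicate 1, 2 or 3 of AL6, and that of lower genes was 405, 378 or 402 without the same libraries and 451 without replicate 3 of AL3.

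The same interval in the other tissues, which shares no library with the AL, moved many of these genes the same way. In EP5 vs. EP4, 913 of the 1733 higher genes tested (52.7%) were higher, against 11.1% of all genes, and 916 of the 1477 lower genes (62.0%) were lower, against 19.6%. In SM5 vs. SM4, 728 of 1714 (42.5%) were higher, against 9.15%, and 679 of 1493 (45.5%) were lower, against 9.77%. In JS5 vs. JS4, 507 of 1655 (30.6%) were higher, against 6.63%, and 606 of 1427 (42.5%) were lower, against 8.40%. Opposite calls were rare, with 31 genes higher in the AL and lower in the EP and 3 to 10 genes in each of the other combinations of tissue and direction. Seen from the other tissues, the AL list held 49.5%, 51.8% and 51.0% of the genes called higher in the EP, SM and JS, and 28.1%, 45.2% and 48.0% of those called lower. All tissues were cut from the same fruits, so they are not independent of each other.

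These overlaps shrank without some libraries of the other tissues. Among the genes higher in the AL, the number also higher in the EP was 532 or 588 without replicate 1 or 2 of EP5, the number in the SM was 412 or 336 without replicate 1 or 2 of SM5, and that in the JS was 200 or 244 without replicate 2 or 3 of JS4 and 140 or 305 without replicate 1 or 2 of JS5. Among the genes lower in the AL, the number also lower was 560 without replicate 2 of EP4, 598 without replicate 1 of EP5, 401 without replicate 3 of SM4, 378 or 323 without replicate 1 or 2 of SM5, 215 or 265 without replicate 2 or 3 of JS4, and 197 or 387 without replicate 1 or 2 of JS5.

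Some of the albedo's calls were found in every tissue and some in no other. Of 1604 higher genes tested in every tissue, 288 (17.96%) were also higher in the EP, SM and JS, where 2.61% of all genes tested were higher in those 3 tissues, and 490 (30.5%) were higher in none of them. Of 1344 lower genes, 329 (24.5%) were also lower in the 3 tissues, against 3.06% of all genes, and 306 (22.8%) were lower in none. The share of all genes called in none of the 3 tissues was not taken. Single tissues called only 6.63% to 11.1% of all genes tested higher and 8.40% to 19.6% lower. Genes called in none are therefore common in general, and the 490 and 306 genes do not set the albedo's list apart. A gene not called in another tissue is not shown to differ there, and the difference between tissues was therefore tested itself.

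The 24 libraries of stages 4 and 5 were fitted together as independent, although the tissues of a stage were cut from the same fruits. The adjusted p values and counts that follow do not allow for this. In this fit, the change in the AL differed from that in the EP for 1847 of 18109 genes (10.2%). The change in the AL differed from that in the SM for 1058 (5.84%) and from that in the JS for 1324 (7.31%). Against the mean of the 3 tissues it differed for 1776 genes (9.81%), of which 1103 (6.09%) had a more positive and 673 (3.72%) a more negative change in the AL. Among the genes higher in AL5, the rise was larger than in the EP for 444, than in the SM for 345 and than in the JS for 491, and it was smaller for 7, 3 and 1. Among the genes lower in AL5, the fall was larger than in the EP for 319, than in the SM for 328 and than in the JS for 382, and smaller for 15, 2 and 4. The AL5 and AL4 values that chose these lists also enter the differences, so that the excess of larger over smaller changes is in great part set by the choice and is given as a description. A larger rise than in each of the 3 tissues was found for 111 genes, whose median log2 fold change was 1.92 in the AL and 0.41, 0.60 and 0.50 in the EP, SM and JS. A larger fall than in each was found for 111 genes, whose median was -1.51 in the AL and -0.39, -0.28 and -0.16 in the EP, SM and JS. When the libraries were first scaled by median ratios, as size factors are, these numbers were 74 and 123. The genes in these counts were selected for the gap between the AL and the other tissues, so their medians are a description. The share of all 18109 genes that met the same rule was not taken.

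The split of these differences into more positive and more negative followed the scaling of the libraries. The median difference over all genes was 0.12 to 0.15 with the FPKM values as deposited and -0.02 to 0.01 after scaling. After scaling, 797 genes had a more positive and 867 a more negative change in the AL than in the mean of the other tissues, and against the SM the numbers were 359 and 629 in place of 512 (2.83%) and 546 (3.02%). Against the JS they were 594 and 648 in place of 744 (4.11%) and 580 (3.20%). Against the EP the more positive side was the larger under both, with 1333 (7.36%) and 514 (2.84%) genes as deposited and 1006 and 550 after scaling. In the single tissues, scaling moved the lower share of calls from 63.8% to 48.9% in the EP and from 55.9% to 44.2% in the JS, and in the AL from 47.2% to 49.4%. Without replicate 1 of AL5, 589 genes differed from the SM, 785 from the JS and 864 from the mean. Without replicate 2 of AL5, 867 differed from the JS and 1053 from the mean, and without replicate 3 of AL4, 2021 differed from the JS.

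Among genes called in AL5 vs. AL4, Cs6g17190 had the highest difference from the mean of the other tissues. Its FPKM was 7.64, 13.3 and 6.26 in replicates 1 to 3 of AL4 and 78.1, 96.3 and 32.2 in those of AL5, a log2 fold change of 2.72 (SE 0.41, limma adjusted p = 0.00279). AL5 was its highest albedo stage, and the gene was at 2.29 ± 1.64 (SD, n = 3) in AL3 and 7.07 ± 3.25 in AL6. In the EP it went the other way, from 78.2 ± 17.3 (SD, n = 3) in EP4 to 10.2 ± 1.84 in EP5, and in the JS from 28.5 ± 7.06 to 13.3 ± 2.25, while the SM went from 8.42 ± 3.09 to 25.5 ± 6.32. The change in the AL was above the mean of the others by 3.48 (SE 0.40, limma adjusted p = 2.09e-05), above the EP by 5.52 (adjusted p = 1.71e-07) and above the JS by 3.74 (adjusted p = 8.11e-05), and its difference of 1.19 from the SM had an adjusted p of 0.145.

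Cs7g25130, the next highest, had libraries at a low level in several groups, AL4 among them. Its FPKM was 17.0, 39.5 and 50.7 in replicates 1 to 3 of AL4 and 945, 515 and 671 in those of AL5, a log2 fold change of 4.36 (SE 0.39, limma adjusted p = 0.000304). In AL3 it had been at 638 ± 157 (SD, n = 3), and in AL6 it ranged from 30.5 to 468. All JS4 and JS5 libraries were low as well, at 32.1 to 118, and replicates were far apart in EP4, at 73.3, 97.9 and 1059, and in SM4, at 629, 53.5 and 31.2. The difference of 3.30 from the mean of the other tissues (SE 1.03, limma adjusted p = 0.0472) did not hold under 4 of 4 other settings (adjusted p = 0.0511 to 0.0756) or without any 1 of 5 of the 6 albedo libraries (adjusted p = 0.0752 to 0.129). Of the fits without 1 albedo library, it held only in that without replicate 3 of AL4. Against single tissues the differences of 2.66 (EP), 3.14 (SM) and 4.08 (JS) had limma adjusted p of 0.217, 0.138 and 0.0537.

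Cs3g25010 had the lowest difference, falling in the AL while it rose in the flesh. Its FPKM was 19.3, 42.0 and 26.5 in replicates 1 to 3 of AL4 and 4.06, 6.76 and 4.81 in those of AL5, and it fell by 2.24 on the log2 scale (SE 0.31, limma adjusted p = 0.00178). The JS went from 187 ± 16.02 (SD, n = 3) to 661 ± 47.0 and the SM from 39.0 ± 13.1 to 185 ± 56.4, while the EP stayed low at 2.18 ± 0.997 and 2.27 ± 0.578. The difference from the mean of the other tissues was -3.61 (SE 0.33, limma adjusted p = 1.25e-06), and the differences from the EP, SM and JS were -2.32, -4.46 and -4.06 (adjusted p = 0.00048, 2.19e-06 and 5.69e-06). The fall lasted, with 5.83 ± 1.75 (SD, n = 3) in AL6, and AL6 vs. AL3 fell by 1.44 (adjusted p = 0.0253 from limma).

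Cs9g02520 was next, at an FPKM of 9.96, 21.6 and 9.53 in replicates 1 to 3 of AL4 and 1.103, 0.855 and 0.179 in those of AL5. It fell by 3.05 on the log2 scale (SE 0.36, limma adjusted p = 0.000985), and its change was -4.23 with a pseudocount of 0.1 and -4.41 with limma-voom. Its mean had been between 9.18 and 13.05 in AL1 to AL3 and was 0.544 ± 0.326 (SD, n = 3) in AL6. The SM was at 9.26 ± 7.84 (SD, n = 3) in SM4, with libraries from 1.08 to 16.7, and at 11.97 ± 4.04 in SM5 (log2 fold change 0.77, limma adjusted p = 0.46), and the EP and JS were low, at 1.43 or less in each mean of stages 4 and 5. Its change in the AL was below that in the SM by -3.82 and below that in the JS by -3.48 on the log2 scale (adjusted p = 0.00652 and 0.00867 from limma), and its difference of -2.17 from the EP had an adjusted p of 0.0851.

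**Figure D5:**
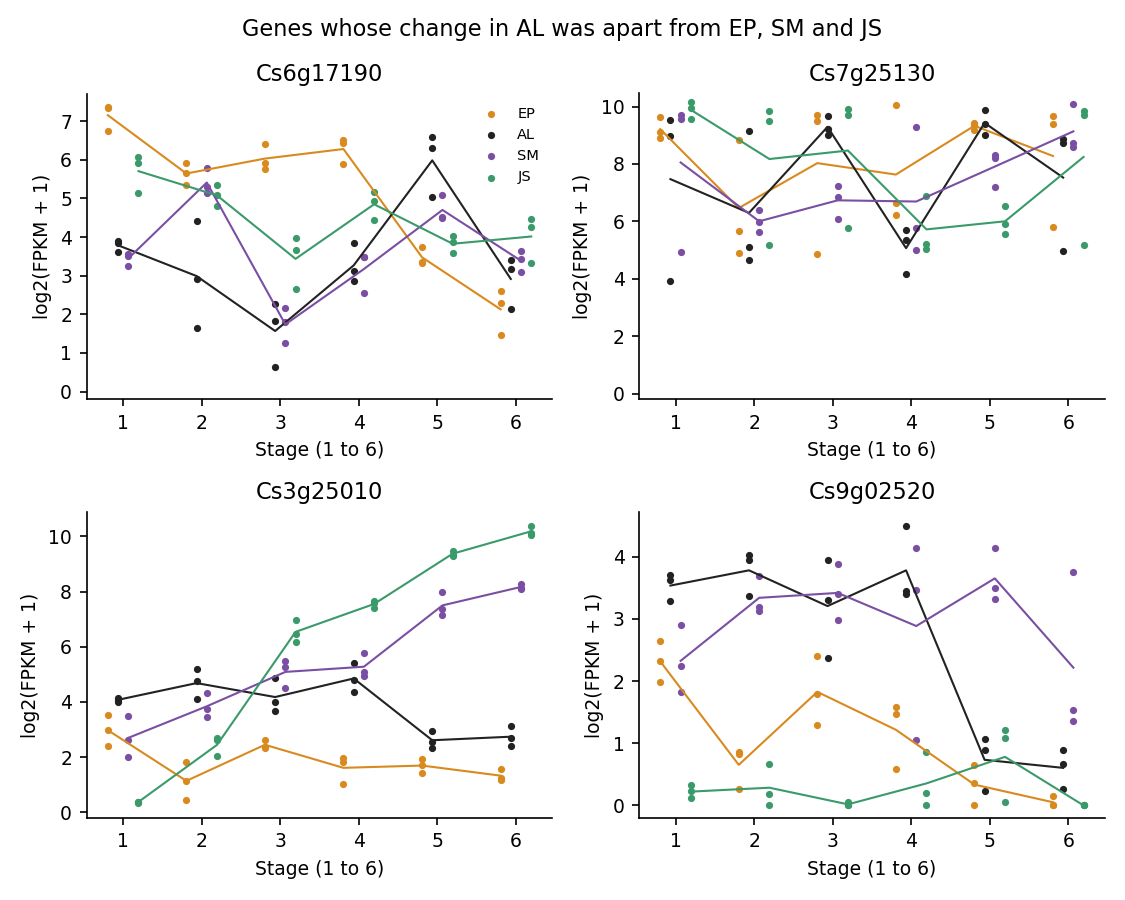
Log2(FPKM + 1) of the 4 genes with the highest and lowest difference between the change in the AL and the mean change in the EP, SM and JS, in each library (points) and as the mean of 3 (lines). From stage 4 to stage 5, Cs6g17190 went up in the AL and down in the EP, Cs7g25130 was low in all AL4, JS4 and JS5 libraries, Cs3g25010 went down in the AL and up in the SM and JS, and Cs9g02520 dropped in all AL5 libraries, while no change was called in the SM.

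The albedo and the epicarp lay nearer to each other at stage 5 than at stage 4. The distance does not show which tissue moved, and it was taken on FPKM values as deposited, without scaling. Over the 15631 genes, the distance between the means of AL and EP on the log2(FPKM + 1) scale was 133.4 at stage 4 and 107.7 at stage 5, and pairs of libraries lay 127.1 to 161.7 apart at stage 4 and 106.7 to 125.4 at stage 5. Distances from the SM were 76.9 and 87.5 and those from the JS 108.4 and 117.3, with pairs that overlapped between the stages (82.5 to 121.0 and 81.6 to 112.2 for the SM). The genes higher in AL5 had a median of 4.01 ± 0.11 (SD, n = 3) in EP4, above the 3.18 ± 0.13 of AL4, and both peel layers were at 4.59 at stage 5 (SD 0.03 in EP5 and 0.12 in AL5). Within the albedo, the distance from AL4 to AL5 was 101.8, between the 89.8 from AL3 to AL4 and the 132.7 from AL1 to AL2, while AL5 to AL6 measured 57.1. Distances carry the spread of replicates, which was 64.8 to 91.6 between AL4 libraries and 39.3 to 59.0 between AL5 libraries, and no test was made of them.

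Tissue lists taken from other stages were used to look for epicarp or membrane in the albedo libraries. A list held genes with a mean FPKM of at least 20 in a tissue and at least 16-fold above each other tissue over stages 1, 2, 3 and 6. This gave 94 genes for the EP, 7 for the SM and 0 for the AL and JS, so the albedo label could not be checked by genes of its own. The EP list summed to an FPKM of 83.3, 153 and 121 in replicates 1 to 3 of AL4 and 170, 157 and 167 in those of AL5, against 14278 to 16595 in EP4 and 9510 to 10073 in EP5. Its sum was thus higher in every AL5 library than in every AL4 library, and it also went from 77.4 to 88.6 in SM4 to 153 to 293 in SM5. Of its 94 genes, 53 were below an FPKM of 1 in all 6 albedo libraries and 1 was at 0 in all, and of the 32 tested 9 were higher and 2 lower in AL5, against 11.6% and 10.4% of all genes tested. The SM list summed to 4.17 to 12.2 in AL4 and 7.01 to 15.2 in AL5. The part of these traces in the results was not tested.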

How the data were processed

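Before deposit, the authors discarded low-quality and adapter-bearing reads, aligned the rest to the sweet orange genome with TopHat, and computed with HTSeq the FPKM values that form the deposited table, 1 per gene and library. The submitters' notes also list Cufflinks, and give 0.6.1 as the HTSeq version. The genome version is not given in the sources used here, nor is whether counting used strand. The authors' own tests were made on counts, which were not used here. All value columns belonged to a labelled sample (0 others).

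FPKM values were taken as deposited, and log2(FPKM + 1) was tested with limma 3.58.1 (R 4.3.3), using the trend and robust options of eBayes and Benjamini-Hochberg adjustment over all genes tested. Fold changes on this scale understate the change of genes with low FPKM. A gene entered a test if 3 or more of the libraries fitted had an FPKM of 1 or more. Differences between tissues were contrasts in 1 fit of the 24 libraries of stages 4 and 5, without a term for the fruits that the tissues shared. Each FPKM value is a whole number of fragments divided by transcript length and library total. These were recovered, within 0.0001 fragments, for 27759 of the 27759 genes above 0, and served for depths, lengths and limma-voom. The tests and the recovery were tested on simulated data.

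Genes were named by rank of log2 fold change, the 5 highest and 5 lowest among those called, provided that the groups did not overlap and that there was a mean FPKM of 10 or more in the higher group, together with the 2 highest and 2 lowest differences from the mean of the other tissues among genes also called in AL5 vs. AL4, with a mean of at least 10 in AL4 or AL5. As IDs have no names, the first 2 in each direction are printed. The comparison, lists and rules were chosen with earlier results of these data known. Lists by product name were not run, since no ID was annotated. Alternatives were another pseudocount, other filters, scaling, a replicate block, larger fits, limma-voom and leaving out each library. Python 3.11.15, pandas 2.3.3 and matplotlib 3.10.9 were used for tables and figures.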

Additional observations from a re-analysis of the deposited data

Results flagged for a closer look

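The change from stage 4 to stage 5 differed between the albedo and another tissue for many genes, by a test of the difference itself. There were 1847 of 18109 genes (10.2%) against the EP, 1058 (5.84%) against the SM and 1324 (7.31%) against the JS. The test was limma at an adjusted p under 0.05, with the tissues taken as independent. Against the mean of the EP, SM and JS, 1103 genes had a more positive and 673 a more negative change. After scaling by median ratios these were 797 and 867. Of the 4 genes named for the size of their change in AL5 vs. AL4, 3 differed in this way from the mean of the EP, SM and JS, and 4 more genes were named for this difference itself. On the log2 scale the change in the AL was above that mean by 2.27 for Cs6g12880 (adjusted p = 0.00947 from limma), 2.86 for Cs7g32150 (adjusted p = 1.6e-05), 3.48 for Cs6g17190 (adjusted p = 2.09e-05) and 3.3 for Cs7g25130 (adjusted p = 0.0472). It was below the mean by -2.79 for Cs6g11570 (adjusted p = 0.00368 from limma), -3.61 for Cs3g25010 (adjusted p = 1.25e-06) and -3.15 for Cs9g02520 (adjusted p = 0.00353). Cs6g17190, Cs7g25130, Cs3g25010 and Cs9g02520 were chosen by this same difference, so for them the value is a description. Cs6g12880, Cs7g32150 and Cs6g11570 were chosen by their change in the AL, which is a part of this difference. Their values and adjusted p are therefore a description as well.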

How the results depend on the processing

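The 3442 genes called in AL5 vs. AL4 became 5298 (2577 of them lower) in a fit of all 72 libraries, and 2620 to 3645 under the 7 other settings. Without each library in turn, 1368 to 3759 genes were called, 687 to 2216 higher, 681 to 1853 lower and 1327 to 2410 changed at least 2-fold. With the lists from AL5 vs. AL4 kept and the other comparison refitted, the genes also called in AL6 vs. AL3 numbered 372 to 1270 (higher) and 378 to 713 (lower), in the EP 532 to 843 and 560 to 860, in the SM 336 to 750 and 323 to 733, and in the JS 140 to 531 and 197 to 604. Genes whose change differed numbered 1445 to 2146 against the EP, 589 to 1554 against the SM, 785 to 2021 against the JS and 864 to 2531 against the mean. The cause of these shifts was not tested, and neither was the part of the smaller number of libraries in them.

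The fold changes of the named genes in AL5 vs. AL4 kept their direction and their side of the threshold in every fit that included them. All these fits reuse libraries of the main fit, so the same direction was largely set in advance. The filter kept Cs7g32150 and Cs2g22800 out of 3 fits each. The difference between tissues for Cs7g25130 lost its call with the pseudocount of 0.1 (3.33, adjusted p = 0.0539 from limma), no filter (3.3, adjusted p = 0.0699), median ratio scaling (3.11, adjusted p = 0.0756) and the replicate block (3.3, adjusted p = 0.0511).

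With the replicate number as a block, 3645 genes were called. Both stages came from the same trees, but the sources used here do not say whether a replicate number stands for the same 3 trees at both. Deviations from the group means correlated at 0.09, 0.24 and -0.01 between same-numbered libraries of AL4 and AL5, which did not settle it. Depth limits the genes with low levels, as Cs9g02520 had 4 fragments in replicate 3 of AL5 and 0 in replicate 2 of EP5 and of JS4. The folds of Cs6g12880, Cs7g32150, Cs2g22800 and Cs9g02520 were more than 1.5 times as large with a pseudocount of 0.1 and with limma-voom.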
